A study of Rattus norvegicus with 24 samples.

Results

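The 150 transcripts described here were chosen because their signal was higher in the liver of burned rats than of sham rats on day 2 and again on day 7. Values were taken to log2(signal + 16), the arrays were quantile-normalized, and for each day the mean of the sham arrays was subtracted from the mean of the burn arrays. Of 15923 rows in the table, the 57 array controls and the 300 rows with the highest sham mean were left out. The 150 of the remaining 15566 rows with the largest minimum of the day 2 and day 7 differences were taken and are called transcript 1 to transcript 150 in that order. The arrays of day 4 entered the normalization, and its sham arrays entered the sham mean by which bright rows were left out. The burn against sham difference of day 4 played no part in the choice. That difference is the test of these transcripts, and the differences of days 2 and 7 are a description.

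The series measured total RNA of whole liver of rats (Rattus norvegicus) on 24 arrays, at 1, 2, 4 and 7 days. Used here are 6 groups of 3 arrays: burn and sham on each of days 2, 4 and 7. Arms and days were read from the sample titles, the letter b as burn and s as sham; no source used here states strain, age, sex, burn method, sham procedure or pooling. Whether each array is a separate animal is not stated, and every p-value below rests on the spread among arrays, part of which may be technical. Burn day 2 replicate 1 carries a description that speaks of a sham control, against its title; the title was followed, and the results without that array are given. The row names of the table did not belong to the values: over 1870 pairs of rows listed under the same gene symbol, mean levels correlated at only -0.0484 (days 2, 4 and 7). Rows named as array controls were checked separately on these days. The 4 bacterial spike-ins, which are added to such arrays in rising amounts, read in that order (BioB, BioC, BioD, Cre) on 18 of 18 arrays. The 3 rows named Actb stood at percentiles 96.8 to 99.0 of all rows and the 3 named Gapdh at 98.4 to 99.0. Control rows are therefore called by name, which for Actb and Gapdh rests on this pattern. Brightness cannot show which row is the 3' and which the 5' probe set, nor check the dim Hk1 rows. These labels were taken as given, and each 3' over 5' ratio below depends on them. The other transcripts carry a rank and no gene name, no sequence and no pathway, and the liver label could not be checked against liver markers. Arrays of day 1 correlated with the other arrays at 0.0283 to 0.0431, against 0.942 to 0.971 among the 18 arrays of days 2, 4 and 7, and were not used.

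A large burn sets off a systemic inflammatory and hypermetabolic state, and the liver answers it with the acute-phase response, in which hepatocytes raise the output of some secreted proteins and lower that of others. That response starts early and can last for days, which is why a transcript that is high at an early and at a late time raises the question of its level in between. On 3' arrays of this kind each array also carries probe sets at the 5' and 3' ends of a few common transcripts. Labelling starts at the 3' end, so a high 3' over 5' ratio is read as a sign of shortened RNA or incomplete labelling.

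The chosen transcripts were higher in burn by a median of 0.90 log2 units on day 2 and 0.90 on day 7, with a range of 0.61 to 5.10 on day 2 and 0.61 to 3.72 on day 7. Of the 150, 32 were at least 2-fold higher on both days. In RNA of whole liver, fewer cells of a type and less RNA per cell cannot be told apart. The limit of the choice was not a gap. The last members inside differed by 0.61 on day 2 and 0.64 on day 7, and by 1.21 and 0.61 (transcript 150). The next rows outside differed by 0.61 and 1.03, and by 1.03 and 0.60. All 3 burn arrays lay above all 3 sham arrays in 85 of the 150 transcripts on day 2, where 6.35% of all rows did so, in 85 on day 7 (7.85% of all rows), and on both days in 52 (1.27% of all rows). These counts follow from the choice. Over the rows the choice could draw on, 90 were as far below sham on both days, 47 were that far above on day 2 and below on day 7, and 41 the reverse.

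On day 4 most of the 150 transcripts stood lower, not higher, in burn liver, and none passed the test after adjustment. Their median difference, burn minus sham, was -0.24 log2 units, against 0.00 over all 15866 rows fitted. Burn was above sham in 49 of the 150 and below in 101, while 49.7% of all rows were above. limma, fitted over the 18 arrays with 1 mean per group, called 0 of the 150 higher and 0 lower on day 4 at an adjusted p under 0.05; it called 0% of all rows. The smallest adjusted p of any of the 150 was 0.27. At an unadjusted p under 0.05, limma had 10 of the 150 higher in burn (6.67%, against 4.97% of all rows) and 21 lower (14%, against 4.35% of all rows). The 3 burn arrays lay above the 3 sham arrays in 12 transcripts (8%, against 7.65% of all rows). They lay below them in 25 (16.7%, against 7.2% of all rows). The count above was thus near the share of all rows, and nothing is read from it. In the other 113 the arms overlapped. Sizes on day 4 ran from -1.90 to 2.51, with 8 transcripts at least 2-fold higher (0.737% of all rows) and 13 at least 2-fold lower (0.756% of all rows).

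**Figure D1:**
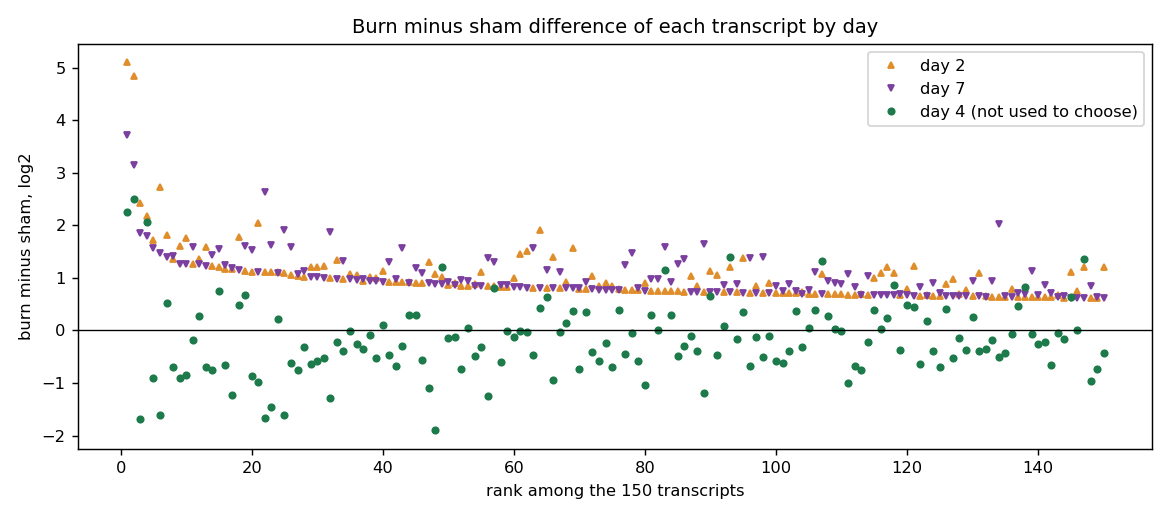
Burn minus sham difference (log2, vertical) of each of the 150 transcripts against its rank (horizontal), with day 2 as upward triangles, day 7 as downward triangles and day 4 as circles. Days 2 and 7 are above 0 by the choice, while 101 of the 150 day 4 circles lie below 0 and the 3 highest circles belong to transcripts 2, 1 and 4.

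By rank, the day 4 values, given as a description, were lowest in the first 50 transcripts. The 50 of highest rank had a median day 4 difference of -0.52, with 13 of 50 above 0. In ranks 51 to 100 the median was -0.13 with 16 of 50 above 0, and in ranks 101 to 150 it was -0.15 with 20 of 50 above 0. By signal, 75 of the 150 lay in the dimmest 33.3% of rows, 37 in the middle and 38 in the brightest. Dim transcripts had a median day 4 difference of -0.22, middle ones of -0.18 and bright ones of -0.37, so the direction was not carried by dim rows alone.

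The median signal of the 150 transcripts on each array shows both arms of the comparison. On day 2 it was 7.80, 7.81 and 7.76 log2 units on the burn arrays and 6.62, 6.65 and 7.25 on the sham arrays. On day 7 it was 7.53, 7.46 and 7.77 on burn and 6.24, 6.91 and 6.64 on sham arrays. On day 4 it was 7.09, 6.81 and 6.91 on burn and 7.18, 7.30 and 7.05 on sham arrays. Burn lay above sham on days 2 and 7 without overlap, as chosen, whereas on day 4 the arms overlapped and the means of both stood between the burn and sham means of the other days. Over all rows the median was 7.80 on each array after normalization, so the 150 were at about the median row on burn arrays of day 2 and below it on sham arrays.

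In the 150 transcripts the means of both arms differed between days, in directions that the choice favours. In 105 of the 150 transcripts the sham mean of day 4 was above the sham means of days 2 and 7 (33.4% of all rows), and in 129 the burn mean of day 4 was below the burn means of days 2 and 7 (30.1% of all rows). Both held in 92 transcripts (9.48% of all rows). The choice favours low sham and high burn means on days 2 and 7, so these counts follow in part from it and were not tested. In 124 of the 150 every burn array lay above the sham mean on days 2 and 7. Of these 124, every burn array lay below the sham mean on day 4 in 53 and above it in 22. The share of all rows with these patterns was not taken, so nothing is read from these counts.

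Transcripts 1 and 2 had by far the largest differences. Transcript 1 read 10.45, 10.27 and 11.80 on burn and 4.36, 4.48 and 8.38 on sham arrays of day 2, and 10.14, 8.74 and 9.96 on burn and 4.62, 5.04 and 8.01 on sham arrays of day 7. On day 4 it read 6.51, 8.00 and 6.94 on burn and 5.03, 4.64 and 5.02 on sham arrays. Its burn arrays were above its sham arrays on each of the 3 days, and replicate 3 of sham day 2 and of sham day 7 stood far above the other sham arrays. As deposited, its signal was 5.0, 8.3 and 331.9 on sham arrays of day 2 and 1346.4, 1212.0 and 3482.6 on burn arrays. The day 4 difference was 2.25 ± 0.98 (SE, n = 3 per arm), with a limma adjusted p of 0.498. Here and below, the SE of a day 4 difference is that of the limma fit. It rests on the spread within all groups of days 2, 4 and 7, not on the day 4 arrays alone. For transcript 1 the SD on day 4 was 0.77 on burn and 0.22 on sham arrays. The SD of its sham arrays was 2.29 on day 2 and 1.85 on day 7.

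Transcript 2 followed the same arrays. On day 4 it read 8.03, 7.85 and 7.68 on burn and 5.98, 4.82 and 5.23 on sham arrays, a difference of 2.51 ± 0.90 (SE, n = 3 per arm; limma adjusted p = 0.423). On days 2 and 7 its differences were 4.85 and 3.15, and it read 8.25 and 8.14 on the same pair of sham arrays that were high for transcript 1. The deviations of the 2 transcripts from their group means correlated at 0.918 over the 18 arrays and at 0.132 over the 6 arrays of day 4. The shared pattern within groups therefore lay mainly in the arrays of days 2 and 7.

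Transcript 4, a dim row, was the other one of high rank with a large rise on day 4. It read 6.87, 7.31 and 6.41 on burn and 4.77, 4.73 and 4.91 on sham arrays of day 4, a difference of 2.06 ± 0.60 (SE, n = 3 per arm; limma adjusted p = 0.305). On days 2 and 7 its burn arrays stood at 7.53 to 7.94, and its sham arrays at 4.36 to 7.38. As in transcripts 1 and 2, the highest sham values came from replicate 3 of sham day 2 (6.89) and replicate 3 of sham day 7 (7.38). Transcript 93, much dimmer, read 5.95, 6.46 and 6.23 on burn and 4.58, 5.12 and 4.77 on sham arrays of day 4 (1.39 ± 0.49 SE, n = 3 per arm; limma adjusted p = 0.416). Its day 7 arrays overlapped, with burn at 7.04, 4.33 and 5.99 and sham at 4.60, 5.74 and 4.84.

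Other transcripts that stood higher without overlap on day 4 were smaller in size. The count of all such transcripts was near the share of all rows, as given above. Transcript 7, a bright row, read 8.64, 8.98 and 8.59 on burn and 8.45, 8.26 and 7.93 on sham arrays (0.52 ± 0.46 SE, n = 3 per arm; limma adjusted p = 0.821). Transcript 90, singled out after its values were seen for its high signal and small spread, read 12.39, 12.26 and 12.14 on burn and 11.48, 11.63 and 11.69 on sham arrays of day 4. Its difference was 0.66 ± 0.20 (SE, n = 3 per arm; limma adjusted p = 0.325) after 1.13 on day 2 and 0.73 on day 7, and its burn arrays were above its sham arrays on every day. None of these day 4 differences passed adjustment.

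The largest reversals were smaller than the rises of transcripts 1, 2 and 4. Transcript 3 read 7.98, 8.18 and 8.13 on burn and 5.01, 5.63 and 6.37 on sham arrays of day 2. On day 7 it read 7.34, 7.42 and 7.89 on burn and 4.98, 7.30 and 4.83 on sham arrays. On day 4 the order was turned, with 5.69, 5.30 and 5.03 on burn and 7.33, 7.54 and 6.23 on sham arrays. The arms did not overlap on any of the 3 days, and the day 4 difference was -1.69 ± 0.53 (SE, n = 3 per arm; limma adjusted p = 0.349).

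Transcript 48 had the lowest day 4 difference, -1.90 ± 0.76 (SE, n = 3 per arm; limma adjusted p = 0.452). Its sham arrays of day 4 stood close together at 9.76, 9.90 and 9.75 and its burn arrays were spread over 6.31, 7.77 and 9.62, so the size rested mostly on burn replicates 1 and 2. On the other days single sham arrays were low, at 7.02 on day 2 and 7.23 on day 7, among values of 9.22 to 9.59. Transcript 25 read 6.37, 5.17 and 6.77 on burn and 7.65, 8.05 and 7.42 on sham arrays of day 4 (-1.60 ± 0.69 SE, n = 3 per arm; limma adjusted p = 0.497). Transcript 32 read 7.07, 7.09 and 5.46 on burn and 8.06, 7.86 and 7.56 on sham arrays (-1.28 ± 0.45 SE, n = 3 per arm; limma adjusted p = 0.411). In transcripts 48, 25 and 32 the sham means of day 4 (9.80, 7.71 and 7.83) stood near the burn means of day 2 (9.59, 8.08 and 8.16) and day 7 (9.61, 7.64 and 7.80). In transcript 3, named by the same rule, the sham mean of day 4 was 7.03, below the burn means of day 2 (8.10) and day 7 (7.55). Naming rows for a low day 4 difference favours a high sham mean of day 4.

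**Figure D2:**
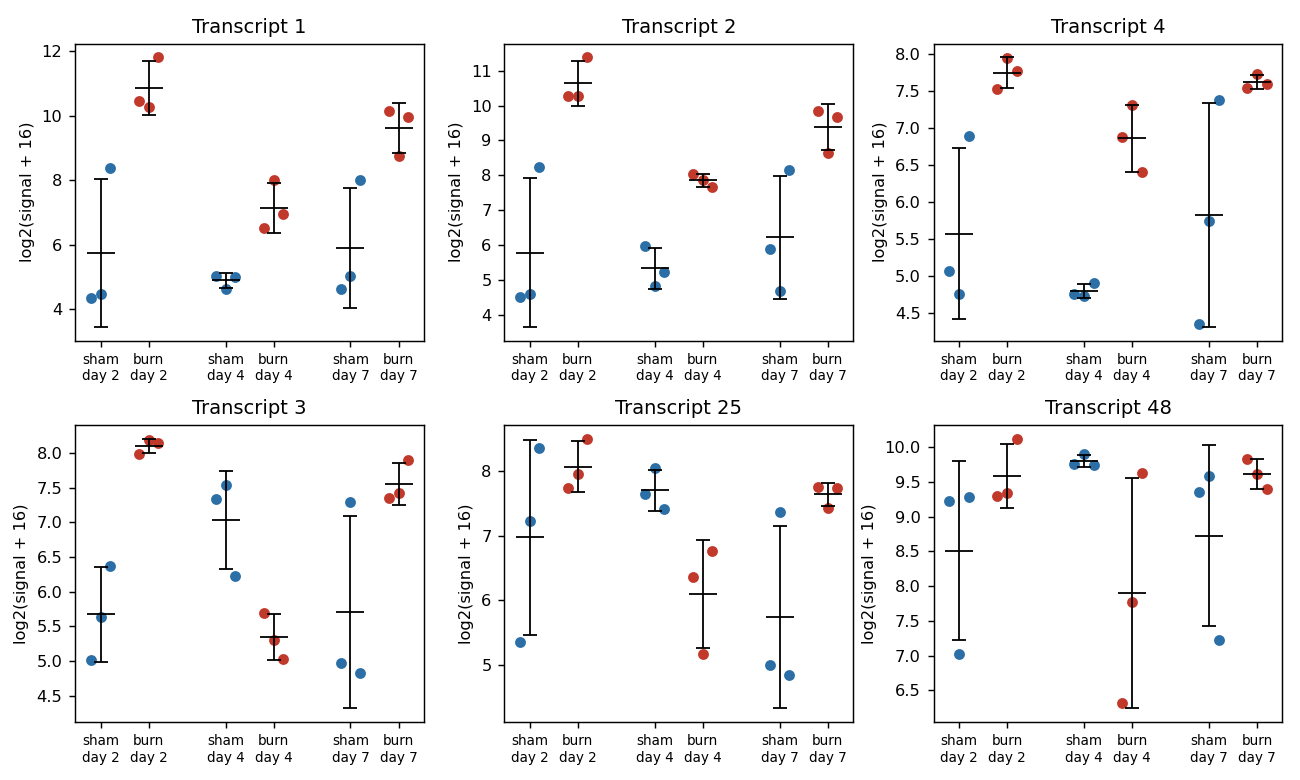
Signal (log2(signal + 16), vertical) of 6 transcripts on each array, by arm and day (horizontal); blue points are sham and red points burn arrays, and black bars give the mean ± SD of 3 arrays. Transcripts 1, 2 and 4 in the upper row are higher in burn on all 3 days, whereas transcripts 3, 25 and 48 in the lower row are lower in burn on day 4.

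Among the remaining transcripts of the highest 12 ranks, day 4 differences ran from -1.61 to 0.28. Transcript 5 was at 6.49, 5.89 and 5.40 on burn and 7.10, 6.89 and 6.49 on sham arrays of day 4 (-0.90). Transcript 6 read 7.46, 5.06 and 4.58 against 7.41, 7.27 and 7.25 in sham (-1.61), where burn replicate 1 stood with the sham arrays. Transcript 8, a bright row, read 9.27, 8.99 and 8.39 against 9.75, 9.80 and 9.16 (-0.69), with overlap. Transcript 9 read 5.87, 5.66 and 6.83 against 7.27, 6.84 and 6.98 (-0.91). Transcripts 10 and 11 were at -0.84 and -0.18 and transcript 12 at 0.28, each with overlapping arms. For transcripts 5 to 12 the limma adjusted p on day 4 was 0.519 or higher. The smallest adjusted p, 0.27, belonged to transcripts 17 and 148, which were lower in burn on day 4 by -1.23 ± 0.33 and -0.96 ± 0.26 (SE, n = 3 per arm).

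The 150 varied more within groups than other rows. The median SD within groups was 0.56 log2 units, against 0.27 over all rows. The gap was present at every signal level: 0.61 against 0.47 in the dim, 0.56 against 0.27 in the middle and 0.37 against 0.18 in the bright class. The part of this spread in the choice was not tested. The same few arrays stood apart in many transcripts. Sham day 2 replicate 3 was the highest of its group in 88 of the 150 (58.7%, against 35.3% of all rows), and sham day 7 replicate 2 in 87 (58%, against 34.1% of all rows). On day 4, burn replicate 1 was the highest of its group in 80 (53.3%, against 37.4% of all rows).

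The 3' over 5' ratio of Actb, cytoskeletal beta-actin, differed between the arms on days 2 and 7. It was 0.11, 0.35 and 0.31 log2 units on burn and 0.89, 0.61 and 0.34 on sham arrays of day 2, and 0.37, 0.41 and 0.44 on burn and 1.27, 0.87 and 1.32 on sham arrays of day 7. On day 4 it was 0.73, 0.91 and 0.78 on burn and 0.97, 0.52 and 0.61 on sham arrays. Burn was lower by a mean of -0.36 on day 2 and -0.74 on day 7 and higher by 0.11 on day 4, the opposite order to that of the 150 transcripts on each day. On days 2 and 7 the choice fixed the order of the 150. For Gapdh, a glycolytic enzyme, the burn minus sham difference of the ratio was -0.18, 0.18 and -0.50 on days 2, 4 and 7. For Hk1, hexokinase 1, whose 3 control rows were dim (percentiles 7.27 to 24.3), it was 0.38, -0.11 and -0.89, so its order on days 2 and 4 was the opposite of that of Actb and Gapdh. Sham day 2 replicate 3, lowest of its group in the Actb ratio, had the highest Hk1 ratio of the 18 arrays (2.10). Within groups the order was mixed. Sham day 2 replicate 3 and sham day 7 replicate 2 had the lowest Actb ratios of their groups and the highest median signal of the 150. So did burn replicate 1 and sham replicate 2 of day 4. Sham day 4 replicate 1 had the highest ratio of its group, yet a higher median signal than replicate 3. Burn day 2 replicate 2 and burn day 7 replicate 3 had the highest Actb ratios of their groups and also the highest median signal, and sham day 7 replicate 3 exceeded replicate 1 in both. Among the sham arrays of day 7, transcripts 1, 2 and 4 were highest on replicate 3, the array with the highest Actb ratio of the 18.

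**Figure D3:**
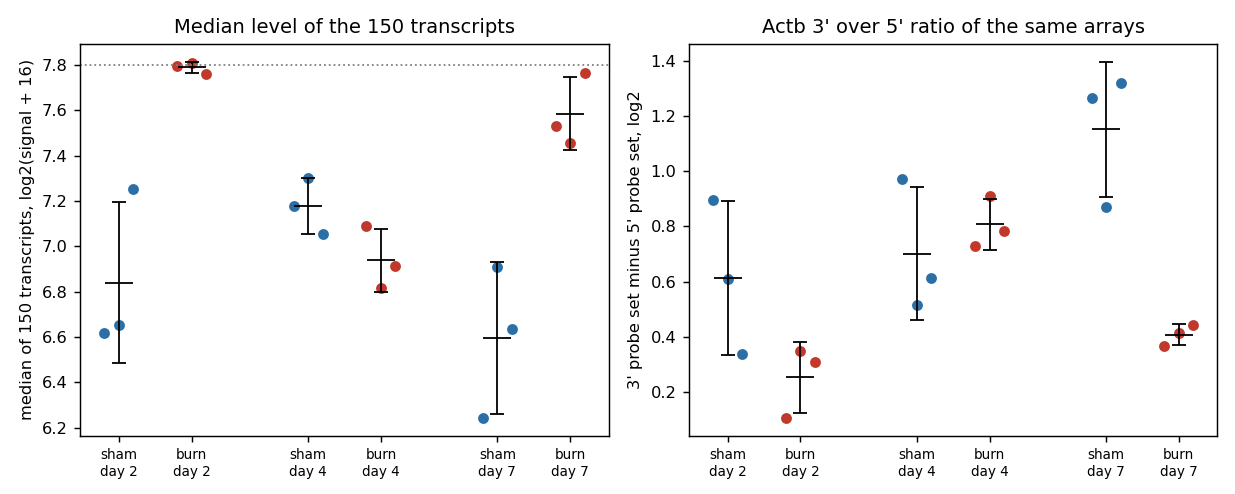
Left, median signal of the 150 transcripts on each array (log2(signal + 16)), with a dotted line at the median of all rows; right, Actb 3' over 5' ratio (log2) of the same arrays, by arm and day; blue is sham, red is burn, bars are mean ± SD of 3 arrays. Burn of days 2 and 7, where the choice made the transcripts high, had the lowest mean ratios. Sham day 7 had the highest mean ratio (1.15) and the lowest mean signal (6.60). Sham day 2 had a lower mean ratio (0.61) than sham (0.70) and burn (0.81) of day 4. Its mean signal was also lower (6.84 against 7.18 and 6.94). The means of both arms of day 4 lie between the burn and sham means of days 2 and 7 in the left plot.

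A limma fit with 1 mean per group and the Actb ratio as covariate takes its coefficient from differences between arrays of a group. The differences that chose the transcripts came from 12 of its 18 arrays, so its counts are not independent of the choice and are a description. The coefficient is the change in log2 signal per log2 unit of the ratio. It was below 0 in 111 of the 150 transcripts (74%), where 49.7% of all rows were below 0, and its median was -0.56 against 0.00 over all rows. At an unadjusted p under 0.05, 30 of the 150 had a negative coefficient (20%, against 3.53% of all rows) and 4 a positive one (2.67%, against 2.92% of all rows). No coefficient passed adjustment over all rows (0% of all rows; smallest limma adjusted p among the 150, 0.516). With the Gapdh ratio, 103 of the 150 were below 0 (50% of all rows), and 37 of them at an unadjusted p under 0.05 (24.7%, against 4.07% of all rows), again with 0 past limma adjustment. By signal, the Actb coefficient was below 0 in 48 of 75 dim transcripts (49% of all dim rows). It was below 0 in 30 of 37 middle (50.2% of all middle rows) and 33 of 38 bright ones (49.9% of all bright rows). For the 6 arrays of day 4 alone, whose burn against sham differences the choice did not use, a fit was added after the data were seen. There the Actb coefficient was below 0 in 73 of the 150 (48.7%, against 49.8% of all rows), with a median of 0.03, and in 8 of them at an unadjusted p under 0.05 (5.33%, against 2.66% of all rows). The Gapdh coefficient was below 0 in 88 (58.7%, against 50% of all rows), with a median of -0.55, and in 17 at an unadjusted p under 0.05 (11.3%, against 3.49% of all rows). limma called 0 rows after adjustment in either fit, which had 3 residual degrees of freedom. In the day 4 arrays alone, the share of Actb coefficients below 0 among the 150 was thus near that of all rows. The Gapdh share below 0 was above that of all rows. For both ratios, so was the share below 0 at a limma unadjusted p under 0.05. With so few degrees of freedom, these fits cannot settle whether the pattern of the 18 arrays holds on day 4.

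**Figure D4:**
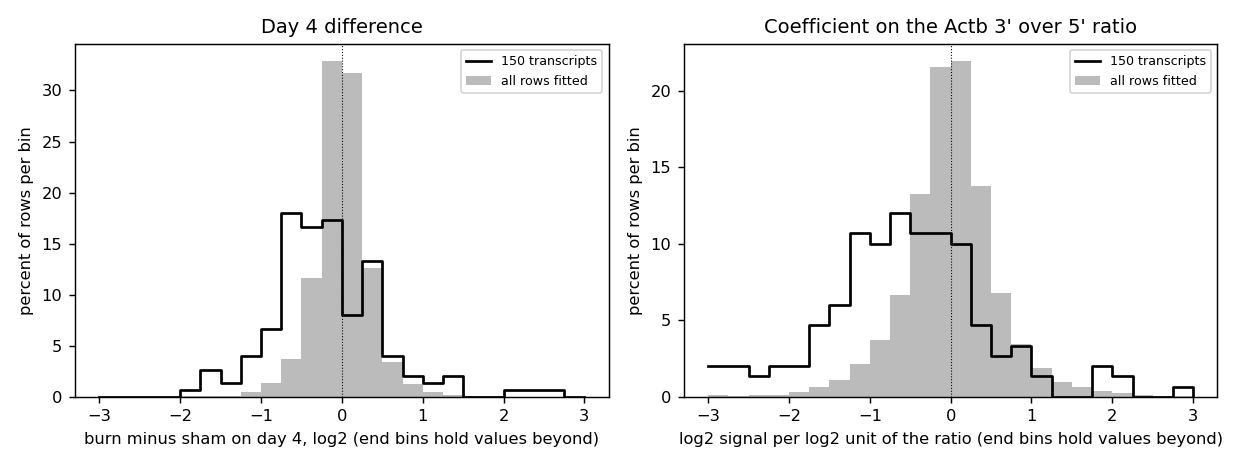
Percent of rows per bin of 0.25 (vertical) for the day 4 difference (left, log2) and the coefficient on the Actb 3' over 5' ratio (right); grey bars are all 15866 rows fitted, the black outline the 150 transcripts, and the end bins hold values beyond the axis. Both outlines lie to the left of the grey bars, with medians of -0.24 and -0.56; the right plot uses all 18 arrays, and in the 6 arrays of day 4 alone the median coefficient was 0.03.

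Single coefficients from the 18 arrays were imprecise. Transcript 60 had the clearest coefficient, -1.96 ± 0.35 (SE, 18 arrays; limma adjusted p = 0.516), and transcript 25 the most negative, -3.74 ± 0.86. Transcript 3 had -2.19 ± 0.83 and transcript 5 had -2.32 ± 0.81. The coefficient of transcript 2 was 0.00 ± 1.71, that of transcript 1 was -0.92 ± 1.85, that of transcript 4 was -0.64 ± 1.13 and that of transcript 7 was -0.05 ± 0.88 (SE, 18 arrays each). The errors of transcripts 1, 2 and 4 are wide enough to hold coefficients as large as those of transcripts 3 and 5.

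With the Actb ratio in the fit, the 150 had a median difference of 0.73 on day 2, of 0.51 on day 7 and of -0.20 for day 4, in place of 0.90, 0.90 and -0.24. On day 2, 147 of the 150 stayed above 0, on day 7, 126, and 66 still passed the limit of the choice on both days. Transcripts 1 and 2 went from 3.72 and 3.15 to 3.04 and 3.14 on day 7, and transcripts 3 and 5 from 1.85 and 1.58 to 0.22 and -0.14. When the rule was applied to differences from that fit, a setting added after the data were seen, 35 of the 150 transcripts were chosen again, and 62 with the Gapdh ratio. The lists so chosen had median day 4 differences of -0.024 and 0.038. On day 7 the ratios of the burn arrays (0.37 to 0.44) and the sham arrays (0.87 to 1.32) did not overlap, so the day 7 values of that fit extend the slope beyond what either arm spans. The part of RNA length or labelling in the choice of the transcripts was not tested further.

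The differences of days 2 and 7 were also taken, for lists chosen again, in arrays that the choice of each list did not use. One burn and one sham array of a day were left out, the 150 rows were chosen again from the other 16 arrays, and the difference between the arrays left out was taken over the rows so chosen. Over the 9 pairs of day 2 the median of that difference ran from 0.21 to 0.79 (middle value 0.62), and over the 9 pairs of day 7 from 0.28 to 0.76 (middle value 0.63). It was above 0 in all 9 pairs of each day. Over all rows the same differences had medians of -0.02 to 0.01. The lists so chosen shared 101 to 119 rows with the 150, and in single pairs 62.7% to 78.7% of their rows were above 0, so a part of the rows in every pair did not repeat. The pairs share arrays and have no test. The lowest values on day 2 (0.21, 0.21 and 0.30) were those of the 3 pairs with sham replicate 3, whose Actb ratio was nearest to that of the burn arrays. On day 7 the 3 pairs with sham replicate 2 gave 0.28, 0.34 and 0.38, and burn replicate 2 against sham replicate 3 also gave 0.38. The part of the ratio in these values was not tested.

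**Figure D5:**
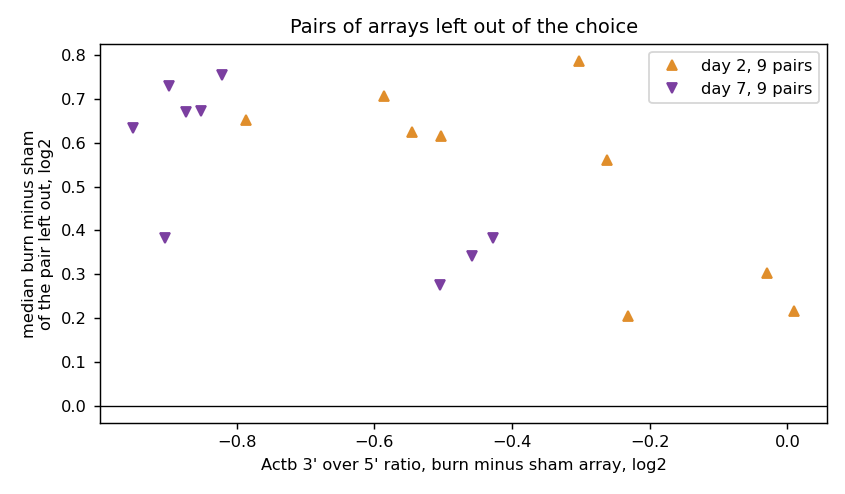
Median burn minus sham difference (log2, vertical) over the rows chosen without the pair of arrays shown, against the difference of the Actb 3' over 5' ratio of that pair (log2, horizontal), for 9 pairs of day 2 and 9 of day 7. All 18 medians are above 0, between 0.21 and 0.79, and the pairs share arrays.

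Some of the 150 rose and fell together from array to array. Of 11175 pairs of transcripts, 16 had deviations from group means that correlated above 0.9 over the 18 arrays (0.143%, against 0.00221% of all pairs of rows), a limit set after the data were seen. The 150 also had the wider spread within groups given above, and its part in this share was not tested. Linking such pairs joined 8 transcripts (3, 20, 25, 26, 89, 96, 101 and 148) into a set, and transcripts 1 with 2, 39 with 47 and 53 with 84 into pairs. The median signal of the set of 8 was 9.28, 9.31 and 9.39 on burn and 8.18, 8.21 and 8.85 on sham arrays of day 2, and 9.14, 9.24 and 9.39 on burn and 7.35, 8.72 and 6.97 on sham arrays of day 7. On day 4 it was 8.62, 8.12 and 8.19 on burn and 9.20, 9.17 and 8.89 on sham arrays. The set was thus lowest on sham day 7 replicates 1 and 3, which had the highest Actb ratios of the 18 arrays. Sham day 4 replicate 1, with the next highest ratio (0.97), read 9.20, the highest of day 4. The part of the ratio was not tested. Each member of the set was lower in burn on day 4, by -1.69 to -0.61. Each had a negative coefficient on the Actb ratio, from -3.74 to -0.95. Rows linked by their deviations within groups share the sign of such a coefficient in large part by construction, so nothing is read from it.

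The bright pair 53 and 84 moved differently. Transcript 53 read 13.56, 13.34 and 13.36 on burn and 12.05, 11.86 and 13.81 on sham arrays of day 2, and 11.78, 13.04 and 12.78 on burn and 12.38, 12.35 and 12.74 on sham arrays of day 4. The day 4 differences of the pair were 0.04 and 0.29. Sham day 2 replicate 3 was the highest of all arrays of that day in transcript 53, so the arms of day 2 overlapped there.

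Leaving out burn day 2 replicate 1, the array with the conflicting description, and choosing again kept 126 of the 150 transcripts, and that list had a median day 4 difference of -0.32. For the 150 as chosen, the median without that array was -0.24 with 49 above 0. Leaving out burn day 4 replicate 1 raised the count without overlap on day 4 from 12 to 19 above and from 25 to 46 below. Leaving out sham day 4 replicate 3 gave 45 below. At an unadjusted p under 0.05, limma counts fell to 6 higher and 10 lower without burn day 4 replicate 2, to 13 lower without burn day 4 replicate 3 and to 5 higher without sham day 4 replicate 1. Fewer arrays overlap less often by construction. More of the 150 were lower than higher on day 4 in each of these, but the share of all rows was not taken in these fits. The counts are therefore a description.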

How the data were processed

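Per the series labels, whole-liver RNA was measured on 24 arrays. The deposited values are linear intensity, 1 signal per probe set; no source used here names the software behind them. Each column of deposited intensity has a trimmed mean of 500.2 (2% off either end), which shows scaling per array by the authors. The 18 arrays of days 2, 4 and 7 were taken to log2(signal + 16) and quantile-normalized. All rows but the 57 controls were fitted in limma 3.58.1 (R 4.3.3, lmFit, eBayes, 12 residual degrees of freedom), with Benjamini-Hochberg adjustment over 15866 rows. The fit was first run on simulated rows drawn independently of each other. That setting lacks the correlation between rows seen here, so nothing is read from it. Differences understate changes of dim rows, and the number of arrays limits the precision. Transcripts named by rule are the 12 of highest rank. Added to them, among those without overlap on day 4, are the 4 with the largest and the 4 with the smallest day 4 difference. Some are shown with day 4 arrays only or by their differences only. Others named were chosen after their values were seen. The members and lists were chosen with earlier results of these data known. Alternatives covered scaling, pseudocount, filters, variance, covariates and arrays left out. Replicate numbers are in the titles, but nothing says that they pair the arrays.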

Additional observations from a re-analysis of the deposited data

Results flagged for a closer look

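In the results below, every burn array lay on one side of the sham mean on days 2 and 7 and on the other side on day 4, or the reverse; these differences between days were not tested, and for the transcripts the choice fixed the side on days 2 and 7. The median signal of the 150 per array was lower in burn on day 4 by -0.24. On day 4, transcript 3 was at -1.69, transcript 5 at -0.90, transcript 8 at -0.69, transcript 9 at -0.91 and transcript 11 at -0.18 (burn minus sham, log2). Transcript 25 was at -1.60, transcript 32 at -1.28 and transcript 48 at -1.90. Only transcripts named by rule were looked at for this pattern. It held in 53 of the 150 and the share of all rows was not taken, so it does not set these transcripts apart. The 3' over 5' ratio was higher in burn on day 4 by 0.11 for Actb and by 0.18 for Gapdh, and lower in burn on days 2 and 7.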

How the results depend on the processing

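The count of transcripts called higher on day 4 by limma at an adjusted p under 0.05 was 0 under every alternative run, with an array left out too. The median day 4 difference ran from -0.29 as deposited to -0.15 with a pseudocount of 64, and from -0.36 to -0.21 with an array left out. Transcripts above 0 on day 4 numbered 45 to 54 of 150, and 46 to 57 with an array left out. At an unadjusted p under 0.05, against 10 higher and 21 lower, limma gave 6 higher and 19 lower of the 75 members left without the dimmest 33.3% of rows, and of 150, 3 higher and 5 lower against a log2 threshold of 0.5. With an array left out the counts ran from 5 to 12 higher and from 10 to 29 lower, without overlap from 12 to 19 above and from 25 to 46 below. Choosing again shared 113 (pseudocount 64) to 146 (no rows left out for brightness) of 150, with day 4 medians of -0.29 to -0.21, and 112 to 130 without an array, with medians of -0.32 to -0.12. A list of 50 rows, all among the 150, had a median of -0.52, and one of 500 rows, which held all 150, had -0.15. Lists chosen with the Actb or Gapdh ratio as covariate shared 35 and 62 of 150, with medians of -0.024 and 0.038. Positive coefficients on the ratio numbered 31 to 47, and 36 to 51 with an array left out, against 39; in the 6 arrays of day 4 alone, a fit added later, there were 77. For 16 transcripts 185 day 4 values were computed under alternatives and 288 more by leaving out arrays; 0 of either kind changed sign, and none passed adjustment (smallest limma adjusted p 0.176). The causes were not tested. With the replicate block, fitted within days, limma gave 10 higher and 24 lower at an unadjusted p under 0.05. Under the alternatives, the share of all rows was not taken for the unadjusted counts or those without overlap. Those counts are a description. The deviations of equal numbers correlated at -0.0348 to 0.168, 2 of 9 over 0.1, so the numbers were not taken as pairs.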
